A study of Homo sapiens with 4 samples.

Results

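In suspended SPIB-overexpressing H1703 lung squamous carcinoma cells, 1780 of the 9024 SPIB peaks lay between genes and had no counterpart in attached cells. They were chosen by 4 conditions: a place on chromosomes 1 to 22, X or Y, a length under 750 bp, no overlap with any attached peak, and a summit that lay in no RefSeq gene span and over 1 kb from every gene end. Of the 9024 suspended peaks, 8981 lay on these chromosomes, 8773 of those overlapped no attached peak, and 8331 of those were under 750 bp. The 1780 intergenic peaks made up 21.4% of these 8331 narrow suspended-only peaks (exact Clopper-Pearson 95% interval 20.5 to 22.3). The other narrow suspended-only peaks had their summit inside a gene and over 1 kb from its ends (3703 peaks) or within 1 kb of a gene end (2848 peaks).

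The groups were SPIB-overexpressing cells of the established H1703 line labelled suspended and SPIB-overexpressing cells of the same line labelled attached. Each had 1 ChIP library made with the ANTI-FLAG M2 antibody and 1 input library without antibody, and cells without the SPIB transgene were not analysed here. The treatment protocol names 24 h of suspension for all 4 libraries, so the groups rest on the condition label. After the authors' filtering the ChIP libraries held 20766909 tags (suspended) and 21108364 tags (attached), and the inputs held 21437074 tags (suspended) and 15878452 tags (attached). Neither group had a replicate (1 ChIP library each), so no p-value is printed, and all intervals cover counting error only. A peak list cannot show the markers of the labelled cell type.

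SPIB is a transcription factor of the ETS family, whose members bind DNA around a GGAA core, and it is best known from B cells and plasmacytoid dendritic cells. Transcription factors bind at promoters and also at sites far from genes, where enhancers are found that can act on genes over long distances. H1703 cells normally grow attached, and epithelial cells that lose attachment tend to die by anoikis, which is the setting the series title names. The nearest gene of an intergenic site is a statement of position, since neither gene expression nor contact between the site and the gene was measured in these files.

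The intergenic peaks were weak and narrow, and in the authors' values they resembled the peaks inside genes more than those at gene ends. The median authors' fold enrichment, which sets ChIP tags against the local background, was 10.24 in the intergenic peaks (quartiles 8.19 and 12.42), 9.94 in peaks inside genes and 7.68 in peaks near gene ends. The median peak held 11 ChIP tags between genes, 11 inside genes and 20 near gene ends. Thus the intergenic peaks had the highest fold and, with the peaks inside genes, the fewest tags. Median widths were 200 bp between genes, 211 bp inside genes and 331 bp near gene ends. Fewer than 10 tags were found in 34.7% of the intergenic peaks, 29.6% of the peaks inside genes and 6.496% of those near gene ends. At least 20 tags were found in 17.4% of the intergenic peaks, 19.96% of those inside genes and 52.0% of those near gene ends. Few intergenic peaks were therefore deep. The authors' false discovery rate (FDR), which MACS obtains by exchanging ChIP and input, was at most 5% in 70.4% of the intergenic peaks, 72.4% of those inside genes and 82.1% of those near gene ends. It was at most 1% in 7.08%, against 8.07% inside genes and 21.1% near gene ends, and it was 0 in 16 intergenic peaks.

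**Figure D1:**
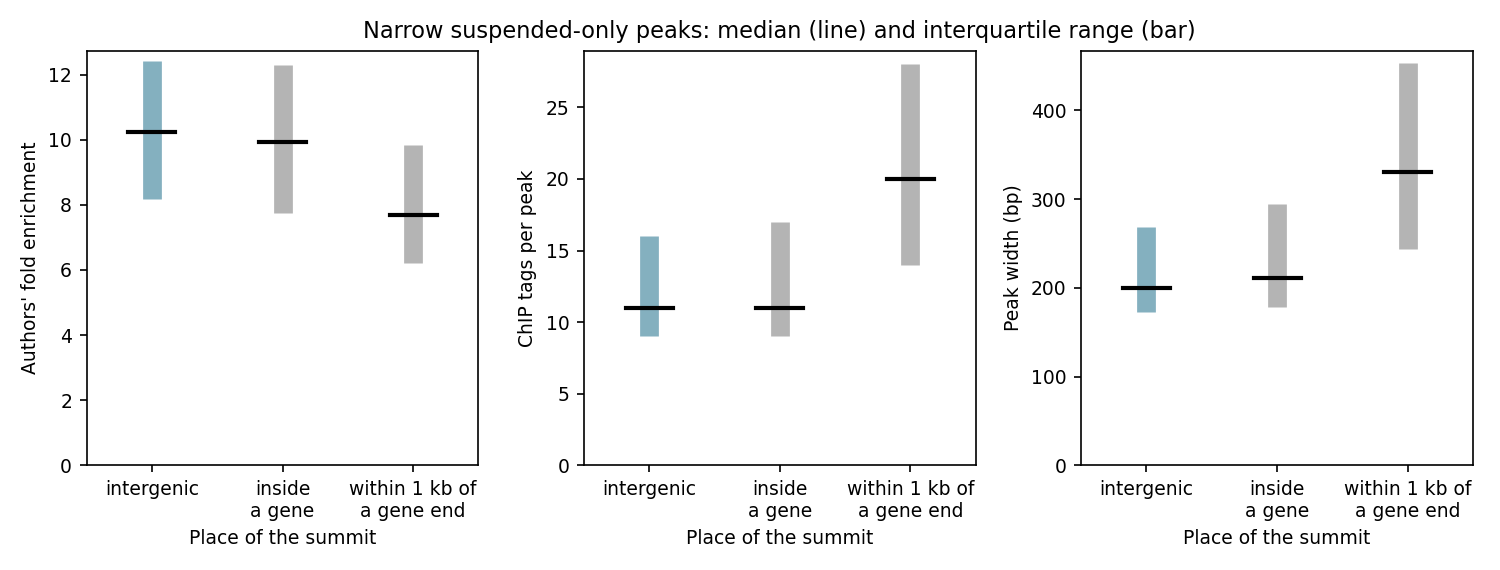
Fold enrichment, ChIP tags per peak and peak width in bp (vertical axes) of narrow suspended-only peaks by the place of their summit: intergenic (1780), inside a gene (3703) and within 1 kb of a gene end (2848). Black lines are medians and bars the interquartile range, and the median of 11 tags between genes lies below the 20 tags near gene ends while the median fold of 10.24 lies above 7.68.

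Fold and tags ran in opposite directions among the intergenic peaks. All of them have a deposited score, minus 10 times log10 of the p-value, of at least 50. A peak with few tags could therefore enter the list only with a high fold. The part of this limit in the trends of fold and tags by place, distance and crowding was not tested. The 380 peaks with 8 tags, the fewest any of them had, showed a median fold of 12.42 and a median width of 166 bp. The 207 peaks with 20 to 29 tags had a median fold of 6.9, and the 10 peaks with 50 tags or more a median fold of 5.73. A high fold in this list therefore often rests on few tags: 80 peaks shared the fold value 12.42 and held 8 to 11 tags each, and 39 shared 17.39 with 8 to 12 tags each. In all, the 1780 peaks covered 426.046 kb and held 25417 tags, which was 0.122% of the filtered ChIP tags of suspended cells and 13.5% of the tags in all suspended peaks.

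The limits of 1 kb and 750 bp cut through a continuous range of peaks. Just inside the distance limit lay peaks at 1001 bp from METRN (19 tags, fold 6.55) and from SOX18 (21 tags, fold 7.4). Just outside it lay peaks at 994 bp from LOC105378139 (17 tags, fold 8.18) and from LOC105372692 (11 tags, fold 11.82). At the length limit, the peaks just inside were 734 bp long near MED10 (48 tags) and 738 bp near DLX3 (44 tags), and the peak just outside was 757 bp long near DNAJB12 (50 tags).

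Most intergenic peaks lay within 50 kb of a gene, and their density fell with distance from genes. The median distance from summit to the nearest gene end was 11392 bp (95% interval of the median 10570 to 12329), with quartiles at 4576 and 29363 bp. By distance class, 481 peaks (27.0%) lay at 1 to 5 kb, 342 (19.2%) at 5 to 10 kb, 693 (38.9%) at 10 to 50 kb, 163 (9.16%) at 50 to 100 kb, 100 (5.62%) at 100 to 500 kb and 1 at over 500 kb. The classes hold very different lengths of sequence, so the counts were divided by the intergenic sequence in each. The density was 2.51 peaks per Mb at 1 to 5 kb (Poisson 95% interval 2.29 to 2.74), 2.09 at 5 to 10 kb (1.87 to 2.32) and 1.39 at 10 to 50 kb (1.290 to 1.499). It was 0.939 per Mb at 50 to 100 kb (0.800 to 1.09) and 0.706 at 100 to 500 kb (0.574 to 0.858), and over all intergenic sequence it was 1.32. The intervals of the first and second class overlap slightly, as do those of 50 to 100 and 100 to 500 kb, while 10 to 50 kb overlaps neither neighbour. The class over 500 kb holds 13.2% of the intergenic sequence and includes centromeres. It also includes unassembled stretches, where reads cannot be placed.

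**Figure D2:**
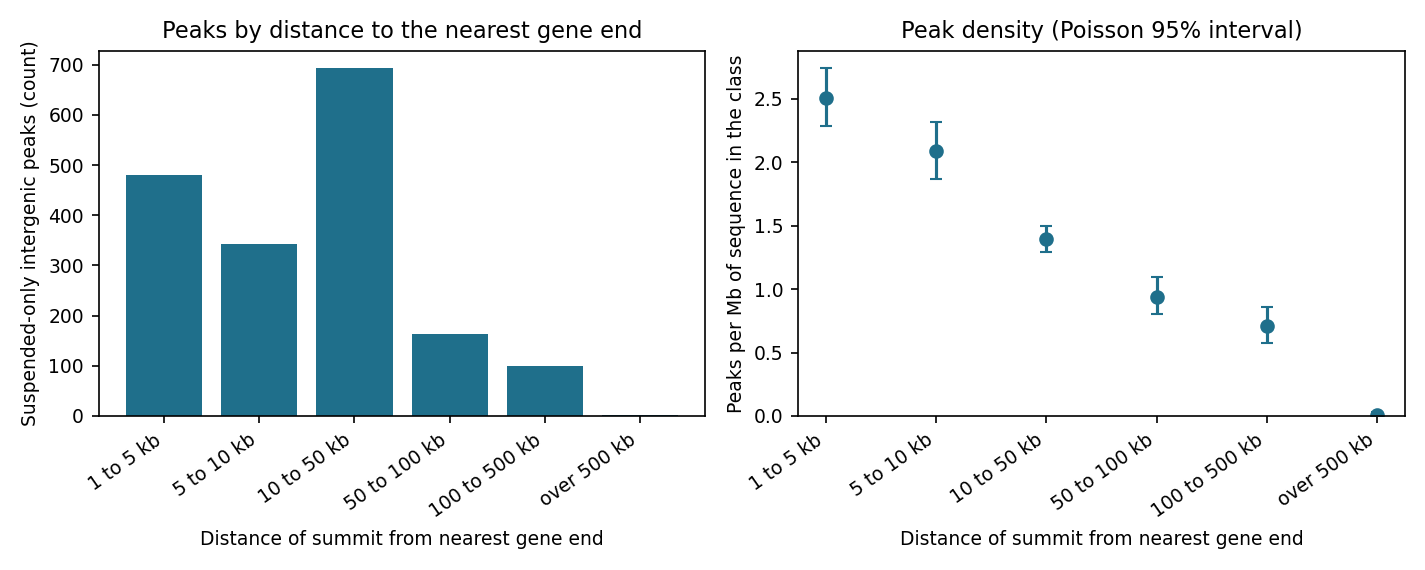
Left, number of suspended-only intergenic peaks in each class of distance from the nearest gene end, and right, the same peaks per Mb of intergenic sequence in the class, with Poisson 95% intervals. The 10 to 50 kb class holds most peaks (693), while the density is 2.51 per Mb at 1 to 5 kb and 0.706 at 100 to 500 kb.

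Peaks far from genes were also the thinnest. Median tags were 13 at 1 to 5 kb, 11 at 5 to 10 kb, 10 at 10 to 50 kb, 10 at 50 to 100 kb and 9 at 100 to 500 kb. The median fold over the same classes was 9.64, 10.225, 10.64, 11.07 and 11.7. The share of peaks with fewer than 10 tags was 22.2%, 29.5%, 39.5%, 47.2% and 58.0% over the same classes. The share with FDR at most 5% had no such order and lay between 67.0% (100 to 500 kb) and 73.0% (50 to 100 kb).

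The nearest gene was protein-coding for 657 peaks (36.9%, interval 34.7 to 39.2), a long noncoding RNA (lncRNA) for 661 (37.1%), a pseudogene for 410 (23.03%) and a small RNA gene for 51 (2.87%). Of the same intergenic sequence, 21.6% had a protein-coding gene nearest, 37.9% a lncRNA, 37.5% a pseudogene and 2.43% a small RNA gene. Peaks beside protein-coding genes were thus denser, at 2.26 per Mb (2.09 to 2.44), against 1.29 beside lncRNAs (1.196 to 1.395) and 0.812 beside pseudogenes (0.736 to 0.895). Small RNA genes lay in between at 1.56 per Mb (1.16 to 2.05). The sequence of each kind includes what lies over 500 kb from genes, with centromeres. It also includes unassembled stretches, where reads cannot be placed. How much this lowers the density of each kind was not tested. The densities by distance class given next leave out the sequence over 500 kb from genes. The order of protein-coding genes, lncRNAs and pseudogenes was the same in the class nearest to genes, where the density at 1 to 5 kb was 3.50 per Mb beside protein-coding genes, 2.18 beside lncRNAs and 1.59 beside pseudogenes. At 5 to 10 kb lncRNAs (1.58 per Mb) stood below pseudogenes (1.86), with protein-coding genes at 2.86. At 100 to 500 kb the order differed again, with 0.409 per Mb beside protein-coding genes (7 peaks), 0.963 beside lncRNAs (53 peaks) and 0.560 beside pseudogenes (36 peaks). Measured to protein-coding genes alone, the median distance was 31432.5 bp, and 264 peaks lay at 1 to 5 kb, 196 at 5 to 10 kb, 599 at 10 to 50 kb, 191 at 50 to 100 kb, 394 at 100 to 500 kb and 136 farther away.

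**Figure D3:**
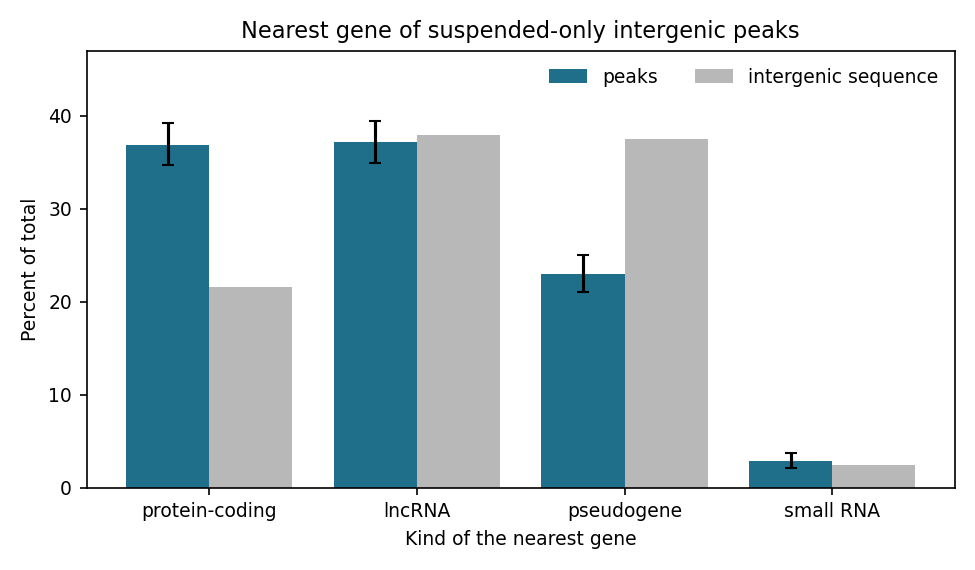
Percent of suspended-only intergenic peaks (dark bars, with Clopper-Pearson 95% intervals) and percent of intergenic sequence (grey bars) whose nearest gene is of each kind. Protein-coding genes are nearest to 36.9% of the peaks and 21.6% of the sequence, and pseudogenes to 23.03% of the peaks and 37.5% of the sequence. The sequence includes centromeres. It also includes unassembled stretches, where reads cannot be placed.

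Peaks lay on both sides of protein-coding genes in nearly equal numbers. Strand was available for the nearest gene of 511 of the 657 peaks. Of these, 255 lay upstream of the gene (2.29 per Mb of such sequence, 2.01 to 2.58) and 256 downstream (2.18 per Mb, 1.92 to 2.47). At 1 to 5 kb there were 82 upstream (3.11 per Mb, 2.48 to 3.87) and 109 downstream (3.83 per Mb, 3.14 to 4.62), and at 10 to 50 kb 101 upstream (2.13 per Mb, 1.73 to 2.59) and 74 downstream (1.59 per Mb, 1.251 to 2.0004). The intervals of the upstream and downstream densities overlap at both distances.

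The peak of highest fold lay on chromosome 19, 51190 bp upstream of ZNRF4, a gene for a RING finger ubiquitin ligase, at chr19:5404162-5404399 (hg38). It held 21 tags (Poisson 95% interval 13.0 to 32.1) at a fold of 30.18 and an FDR of 0. The next, near LOC105369990 on chromosome 12 at chr12:113601687-113602036, held 22 tags at a fold of 23.75, and its nearest protein-coding gene was LHX5, a LIM homeobox factor, at 129993 bp. SULT4A1, a sulfotransferase gene known from brain, had a peak of 23 tags and fold 20.72 at 5488 bp, and also a suspended peak at its own end. These 3 peaks had an FDR of 0 and stood on more than 20 tags each. The other 7 of the 10 highest folds rested on 8 to 16 tags. They lay nearest to POM121L10P (fold 22.36, 11 tags), RBPJP6 (21.24, 10 tags), LINC02433 (21.07, 10 tags), GPR26 (20.28, 16 tags), LOC105375592 (19.93, 9 tags), LOC105378313 (19.87, 10 tags) and AK6P1 (19.87, 8 tags). Some of their nearest protein-coding genes were far away, such as GRIA2, an AMPA glutamate receptor subunit, at 293615 bp from the LINC02433 peak. INSIG1, a regulator of sterol synthesis, lay at 31013 bp from the LOC105375592 peak.

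Of the 10 peaks of highest fold whose nearest gene was protein-coding and within 50 kb, SULT4A1 came first, and the next fold was shared at 19.87 by peaks with 8 tags each beside KDM3A, a histone demethylase gene (41773 bp), FAM210B (29913 bp) and DCUN1D4 (31793 bp). MMP27, a matrix metalloproteinase gene, had a peak 1789 bp upstream with 11 tags and fold 19.66. Of these 10 the deepest lay 2105 bp from SP7, an osteoblast transcription factor gene, at chr12:53324285-53324802, with 38 tags (26.9 to 52.2), fold 17.59 and FDR 0. ATCAY, a gene known from brain, had a peak of 20 tags at 3607 bp with fold 17.62. EOLA1 (18.73), ILDR1 (17.71) and HPRT1 (17.39) had high folds on 8, 8 and 9 tags. Of these 10, the SP7, SULT4A1 and ATCAY peaks reached 20 tags.

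By tags, 1 peak stood apart from all others. At chr3:93470349-93470812 there were 707 tags (656 to 761) at a fold of 1.65, in a stretch of 2329.988 kb without a gene, and the next deepest intergenic peak held 72. Whether the chromosome 3 site holds repeats was not examined. The peak of 72 tags lay near the pseudogene ACO2P2 on chromosome 1, with NID1 as nearest protein-coding gene at 32193 bp. Its fold was 9.01 and its FDR 0. Next came 2 peaks of 56 tags on chromosome 8 near LINC03042 (fold 6.16, FGFR1 at 29529 bp) and LOC124901936 (fold 5.3, TACC1 at 44784 bp), and a peak of 53 tags near LOC124900947 on chromosome 5 (fold 4.45). FGFR1, a growth factor receptor gene, lies in a region known to be amplified in H1703 cells, and its 1 Mb window held 32 suspended peaks of every place. DNA copies were not measured here, and their part in these tag counts was not tested.

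The farthest peak from any gene lay on chromosome 12, 1182099 bp from AK6P1, with 8 tags and fold 19.87, and it was the single peak beyond 500 kb. The next were 2 peaks on chromosome 18 at 450969 bp (8 tags, fold 9.23) and 398161 bp (9 tags, fold 14.9), the chromosome 3 peak of 707 tags at 373053 bp, and a chromosome 6 peak at 363055 bp (8 tags, fold 12.42). Apart from the chromosome 3 peak, the farthest sites held 8 or 9 tags, at or next to the lowest count in the list. Taken over the peaks, the median width of the gap between genes around a peak was 54067 bp. Of 1564 gaps with a peak, 1399 held exactly 1, 133 held 2 and 32 held 3 or more.

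Intergenic peaks were unevenly spread over the chromosomes, and chromosomes 5, 17 and 19 were the densest. Chromosome 17 had 4.09 per Mb of intergenic sequence (3.38 to 4.91, 115 peaks), chromosome 19 had 3.795 (2.959 to 4.795, 70 peaks), chromosome 5 had 2.88 (2.52 to 3.28, 232 peaks) and chromosome 6 had 2.14 (1.81 to 2.51, 150 peaks). At the low end chromosome 13 had 0.535 (0.370 to 0.747), chromosome X 0.450 (0.321 to 0.613) and chromosome Y 0.081 (0.022 to 0.206, 4 peaks). Peaks inside genes were spread in a similar way, counted per Mb of the whole chromosome. They had 3.33 on chromosome 19, 3.03 on 17, 1.87 on 10 and 1.74 on 5. On chromosome 13 they had 0.551, on X 0.269 and on Y 0. The sequence of each chromosome includes stretches where reads cannot be placed. The dense chromosomes 5 and 17 also had lower folds and more tags per intergenic peak. The median fold was 8.19 with 15 tags on chromosome 5 and 7.8 with 16 tags on chromosome 17. Chromosome 19 had 10.43 and 11 tags. On chromosome 5 the density changed along its length. From 0 to 50 Mb there were 122 peaks, 4.49 per Mb (3.73 to 5.36), with a median of 21 tags, a median fold of 6.87 and a median width of 302.5 bp. From 50 to 190 Mb there were 110 peaks, 2.08 per Mb (1.71 to 2.51). Their medians were 11 tags, a fold of 10.5 and a width of 197.5 bp. Chromosome 17 had 3.46 per Mb (2.49 to 4.68) from 0 to 30 Mb, with a median of 17 tags. From 30 to 90 Mb it had 4.57 per Mb (3.58 to 5.74) and a median of 16 tags, so its intervals overlap.

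**Figure D4:**
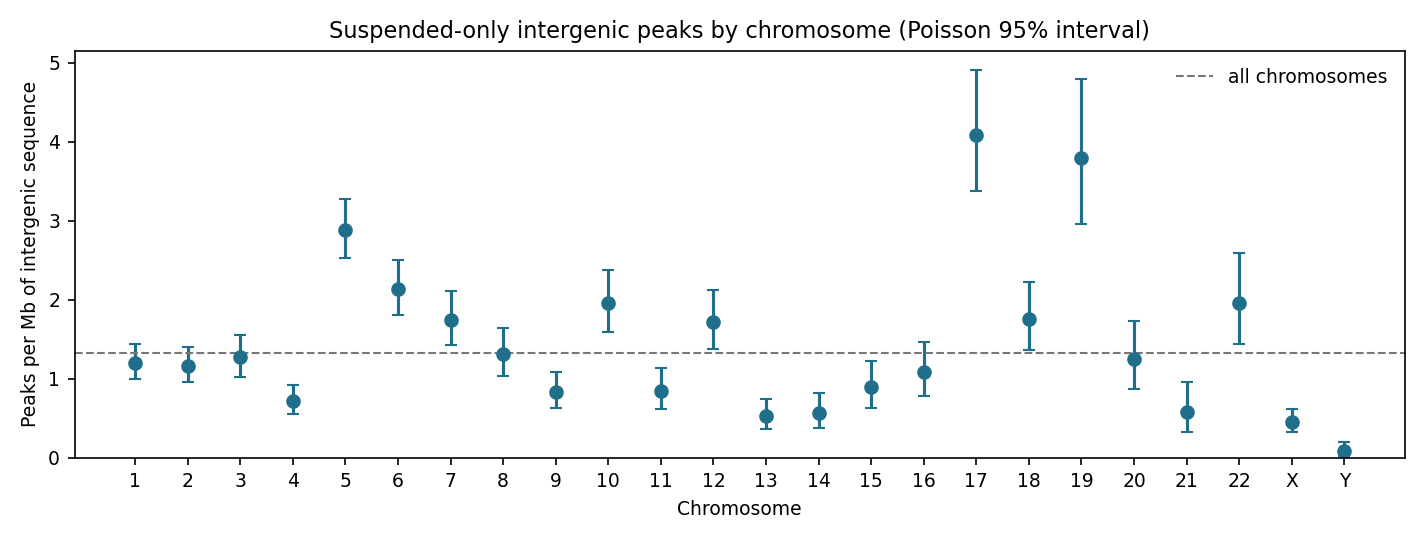
Suspended-only intergenic peaks per Mb of intergenic sequence on each chromosome, with Poisson 95% intervals, and a dashed line at the density of all chromosomes (1.32). Chromosomes 17 (4.09), 19 (3.795) and 5 (2.88) lie above the line, and chromosomes 13 (0.535), X (0.450) and Y (0.081) below it.

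The same mix of more tags and lower fold marked crowded stretches in general. A 1 Mb window was called crowded where it held more than 12 suspended peaks of any place, which was the case for 99 of 2119 windows with a peak. In them lay 240 intergenic peaks (13.5%), against 16.96% of the peaks inside genes and 21.9% of those near gene ends. The 240 peaks had a median of 20 tags and a median fold of 7.25, against 10 tags and 10.87 in the 1540 peaks outside crowded windows.

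The windows richest in intergenic peaks were on chromosomes 5, 7, 17 and 6. At 2 to 3 Mb of chromosome 5, 11 of the 13 suspended peaks were intergenic, with folds of 5.62 to 8.88 and 20 to 41 tags, and 6 of them had IRX2, an Iroquois homeobox gene, as nearest protein-coding gene at 28449 to 161392 bp. At 28 to 29 Mb of chromosome 5 all 10 suspended peaks were intergenic, with folds of 5.38 to 11.5 and 9 to 44 tags, and 5 of these had the lncRNA LINC02103 nearest. The window at 1 to 2 Mb of chromosome 7 held 9, among them peaks at 14841 and 97163 bp from UNCX, a homeobox gene, and at 1204 and 2539 bp from ELFN1. Each of 3 windows held 7: chromosome 17 at 21 to 22 Mb, where MAP2K3, a kinase acting on p38, had 3 peaks with 23 to 50 tags, chromosome 5 at 1 to 2 Mb, with a peak of 38 tags at 3898 bp from IRX4, and chromosome 6 at 141 to 142 Mb. Such windows were rare, since 714 of the 1116 windows with an intergenic peak held exactly 1 and 30 held 5 or more.

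Few genes were nearest to more than 1 peak. The 1780 peaks had 1635 different nearest genes, of which 1513 had 1 peak, 104 had 2 and 18 had 3 or more. The most were 5 for the lncRNAs LINC02103 and LOC105374696 on chromosome 5 and 4 for LOC124901255 on chromosome 6. RNU7-82P and TARDBPP5, both pseudogenes, had 3 each. Counting protein-coding genes alone at any distance, 1424 genes were nearest to a peak, 7.11% of the 20037 in the table, led by LOC124901178 with 12 peaks and CDH9, a cadherin gene, with 11 at 204478 to 942202 bp. For both genes every one of these peaks lay over 200 kb away.

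Intergenic peaks lay farther from other suspended peaks than the rest did. The median distance to the next suspended peak was 81448.5 bp for intergenic peaks (95% interval 75619 to 90492), 54736 bp for peaks inside genes and 36033 bp for peaks near gene ends. Another suspended peak lay within 10 kb of 14.04% of the intergenic peaks, 17.85% of those inside genes and 28.83% of those near gene ends. The attached list is far shorter, with 462 peaks against 9024, and the rule left out every peak that overlapped it. Few attached peaks around the intergenic ones are thus partly given in advance. Of the intergenic peaks 2 had an attached peak within 1 kb, 13 within 10 kb and 102 (5.73%) within 100 kb. Within 100 kb the share was 7.78% for peaks inside genes and 8.01% for peaks near gene ends. The nearest pair of an intergenic and an attached peak lay 507 bp apart on chromosome 4. This suspended peak, at chr4:49709100-49709387, held 24 tags at a fold of 19.36. The next lay 671 bp apart beside NKX1-1, a homeobox gene, where the suspended peak held 9 tags. A further 45 intergenic suspended peaks overlapped an attached peak and 35 were 750 bp or longer, and neither set is counted among the 1780.

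The same position rule gave 70 intergenic peaks in the attached list, 28.5% of its 246 narrow attached-only peaks (22.9 to 34.5), against 21.4% (20.5 to 22.3) in suspended cells. The suspended peaks had a median fold of 10.24 and 11 tags, and the attached ones 17.06 and 12 tags. These values and the FDRs come from separate MACS runs, with inputs of 21437074 tags (suspended) and 15878452 tags (attached). They are therefore not on a common scale. All 1780 suspended peaks had an FDR of at most 6.42%, while the 70 attached ones had FDRs of 18.03% or more and 61 of them stood at 100%. The median distance to a gene end was 11392 bp (10570 to 12329) in suspended and 15221 bp (10399 to 23419) in attached cells, so the intervals overlap. The attached list is short and its intergenic peaks do not pass a low FDR, so a site missing from it is not shown to be unbound in attached cells.

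Genes beside intergenic peaks had a suspended peak of their own more often than protein-coding genes at large. Within 50 kb, 960 protein-coding genes were nearest to an intergenic peak, 4.79% of all 20037. Of these 960, 170 (17.7%, 15.3 to 20.3) also had a suspended peak within 1 kb of a gene end, against 13.8% of all protein-coding genes, and 35.2% (32.2 to 38.3) had a suspended peak at an end or inside, against 25% of all. When peaks in crowded windows were left out, 124 of 790 genes (15.7%, 13.2 to 18.4) had an end peak, against 11.6% of genes outside such windows. An attached peak at an end or inside was found for 25 of the 960 (2.60%, 1.69 to 3.82), against 1.57% of all. Genes that are nearest to an intergenic peak have intergenic flanks by definition, and the part of gene length or neighbourhood in these shares was not tested.

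A promoter window of 250 bases before to 50 after the start was available in RefSeq (GRCh38.p14) for 733 of the 960 genes. A suspended peak overlapped 70 of these windows (9.55%, 7.52 to 11.9), against 8.23% of all 15843 windows, and the interval includes the value of all windows. The sequences of 3 promoters with a suspended peak are shown because their genes were each the nearest protein-coding gene to a high-fold intergenic peak. They give the 250 bases before the start, 5′ to 3′ on the strand of the gene, and capitals mark the ETS core GGAA or its reverse complement TTCC. HSPA4 (chr5:133051763-133052012, plus strand) encodes a heat shock protein of the HSP110 family, DIPK2A (chr3:143971548-143971797, plus strand) a protein kinase-like secreted factor, and CSNK2A1 (chr20:543791-544040, minus strand) the catalytic alpha subunit of casein kinase 2.
HSPA4: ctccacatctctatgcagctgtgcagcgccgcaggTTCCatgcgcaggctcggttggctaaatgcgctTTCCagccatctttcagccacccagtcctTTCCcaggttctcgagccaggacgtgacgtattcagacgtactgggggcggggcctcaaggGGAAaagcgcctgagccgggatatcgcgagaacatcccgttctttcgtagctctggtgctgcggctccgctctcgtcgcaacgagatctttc
DIPK2A: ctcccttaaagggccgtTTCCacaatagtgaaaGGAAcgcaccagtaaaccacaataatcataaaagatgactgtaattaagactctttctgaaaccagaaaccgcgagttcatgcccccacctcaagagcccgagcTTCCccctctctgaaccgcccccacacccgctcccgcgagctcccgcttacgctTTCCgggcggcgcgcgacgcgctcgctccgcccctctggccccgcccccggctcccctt
CSNK2A1: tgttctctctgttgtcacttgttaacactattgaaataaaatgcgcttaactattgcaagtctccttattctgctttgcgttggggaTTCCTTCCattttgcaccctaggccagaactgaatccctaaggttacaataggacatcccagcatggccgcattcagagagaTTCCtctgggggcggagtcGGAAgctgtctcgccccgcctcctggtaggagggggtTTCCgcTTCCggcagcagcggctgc

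The HSPA4 sequence holds 4 cores, the DIPK2A sequence 4 and the CSNK2A1 sequence 6. The promoter peaks lay at chr5:133051615-133051980 (HSPA4), chr3:143971212-143971624 (DIPK2A) and chr20:543640-543857 (CSNK2A1). Each covered part of the printed sequence, and some marked cores of DIPK2A and CSNK2A1 lay outside it. HSPA4 had an intergenic peak with 15 tags and fold 17.43, 25047 bp beyond the gene end far from the promoter. The lncRNA LOC105379178 lay nearer to this intergenic peak. The promoter peak of HSPA4 had 23 tags and fold 7.37. DIPK2A had an intergenic peak 4423 bp upstream with 13 tags and fold 16.72, and a promoter peak with 29 tags and fold 5.46. CSNK2A1 had an intergenic peak with 10 tags and fold 15.42, 3592 bp beyond the gene end far from the promoter. Its promoter peak had 13 tags and fold 10.43. The GGAA core is short and common, so a longer ETS motif was counted as well. GGAAGT or its reverse complement ACTTCC stood in 21.7% (18.8 to 24.9) of the 733 promoter windows, 22.9% (13.7 to 34.4) of the 70 covered ones and 24.8% (24.1 to 25.4) of all 15843. GAGGAAGT or ACTTCCTC, which contains that motif, stood in 1.501% of the 733, in 0 of the 70 and in 2.52% of all. The AP-1 motif TGACTCA (reverse TGAGTCA) stood in 3.14% of the 733, 4.29% of the 70 and 3.66% of all, and the CRE motif TGACGTCA, its own reverse complement, in 3.14%, 2.86% and 2.59%. For every motif the intervals of both gene sets include the share in all promoters, and 0 of 70 allows up to 5.13%. The intergenic peaks themselves were not searched for motifs, because no genome sequence was used here.

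Genes of 23 lists were counted where they were the nearest protein-coding gene of an intergenic peak within 50 kb. In all, 94 of 1766 distinct genes (5.32%) met this, against 4.79% of all protein-coding genes. The lists differ in how much intergenic sequence their genes have, so peaks per Mb of that sequence are given as well, against 2.51 per Mb (2.36 to 2.67) for all protein-coding genes. The counting interval of the share lay above 4.79% for 2 lists and below it for 1, and that of the density lay above 2.51 for 2 lists and below it for 2.

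Immediate early, AP-1 and KLF genes, which respond within minutes to hours to growth factors and stress, had 6 of 31 members beside an intergenic peak (19.4%, 7.45 to 37.5) and 7.22 peaks per Mb (2.90 to 14.9). NR4A1, a nuclear receptor gene of this kind, had a peak 1730 bp away at chr12:52061075-52061335 with 13 tags and fold 10.14. IER2 had a peak at 7857 bp with 14 tags and fold 8.67. IER5 had peaks at 9051 bp (27 tags, fold 8.09) and 48947 bp (21 tags, fold 6.43). DUSP1, a phosphatase that switches off MAP kinases, had its peak at 26968 bp with 39 tags, fold 7.29 and FDR 0.21%. KLF6 and ZFP36 were the others, and both also had a suspended peak at a gene end. The share and the density of this list both had intervals above those of all genes, but among 23 lists examined, with no replicate, this stays a description. With peaks over 5 kb from every gene end alone, 2 of 31 genes (6.45%) were left, against 3.04% of all genes.

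**Figure D5:**
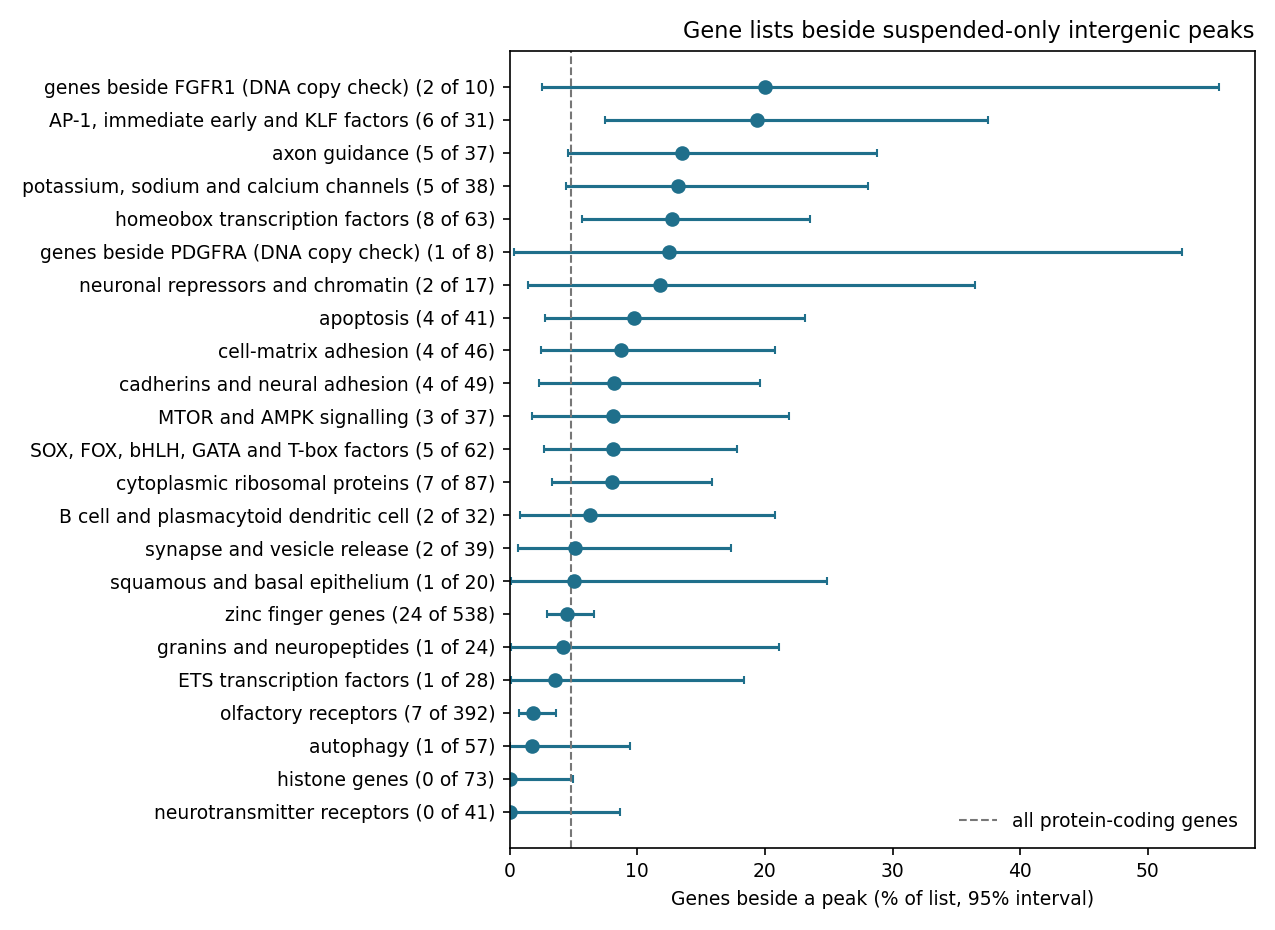
Percent of the genes of each list that are the nearest protein-coding gene of a suspended-only intergenic peak within 50 kb, with Clopper-Pearson 95% intervals, and a dashed line at 4.79% for all protein-coding genes. AP-1 and immediate early genes (19.4%) and homeobox genes (12.7%) have intervals to the right of the line, olfactory receptors (1.79%) to the left, and the other lists overlap it.

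Homeobox genes, which encode factors that pattern the embryo, had 8 of 63 members beside a peak (12.7%, 5.65 to 23.5). Per Mb the list had 3.85 peaks (1.92 to 6.89), an interval that includes the value of all genes, and these genes have 45.3 kb of intergenic sequence each against 21.0 kb for all. DLX1 had a peak at 4610 bp with 18 tags, fold 12.25 and FDR 0.46%, and DLX2, its neighbour on chromosome 2, a separate peak at 4212 bp with 15 tags and fold 7.65. EN1 had peaks at 7460 bp (14 tags, fold 11.95) and 13375 bp (10 tags, fold 11.43). With peaks over 5 kb from every gene end alone, 2 of 63 homeobox genes (3.17%) were left, against 3.04% of all genes, and with peaks of FDR at most 5% 5 of 63 (7.94%), against 3.4% of all genes. SOX, FOX, bHLH, GATA and T-box factor genes had 5 of 62 members (8.06%) and 1.82 peaks per Mb, with FOXC1 at 12862 bp (29 tags, fold 7.06, FDR 0.32%) the deepest.

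Lists of neuronal genes gave no common picture. Channel genes had 5 of 38 members beside a peak (13.2%, 4.41 to 28.1) and 2.56 peaks per Mb, led by KCNMA1, a calcium-activated potassium channel gene, at 13561 bp with 12 tags and fold 14.9. Axon guidance genes had 5 of 37 (13.5%, 4.54 to 28.8) and 2.13 per Mb, with EPHA7 at 43560 bp (10 tags, fold 14.04). Synapse and vesicle genes had 2 of 39, RIMS2 at 5064 bp (15 tags, fold 12.74) and VAMP2 at 2859 bp (49 tags, fold 5.3). Of 41 neurotransmitter receptor genes 0 had a peak within 50 kb, and their density of 0 allows up to 1.505 per Mb. Cadherin and neural adhesion genes had 4 of 49, and neuronal repressor genes 2 of 17, HDAC2 at 1863 bp (9 tags) and RCOR1 at 8525 bp (11 tags). Among granin and neuropeptide genes CCK alone had a peak, at 1662 bp with 9 tags.

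Lists around survival, metabolism and attachment gave small counts, with shares on both sides of the 4.79% of all protein-coding genes. Autophagy genes had 1 of 57 members beside a peak (1.75%), ULK2, a kinase that starts autophagosome formation, with 2 peaks at 4191 and 8852 bp of 31 and 41 tags. MTOR and AMPK genes had 3 of 37 (8.11%) and 6.34 peaks per Mb (2.06 to 14.8). These were PRKAB2, an AMPK subunit gene (8 tags), EIF4EBP1, a translation repressor gene with 2 peaks in the crowded FGFR1 window, and DDIT4, a stress-induced inhibitor of mTORC1. DDIT4 had peaks at 10236 bp (29 tags, fold 5.16) and 16544 bp (26 tags, fold 5.21). Its gap of 56.826 kb to DNAJB12, a J-domain chaperone gene, held 4 intergenic peaks of 29 to 36 tags, 3 of them nearest to DNAJB12.

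Apoptosis genes had 4 of 41 members beside a peak (9.76%) and 6.54 per Mb (2.12 to 15.3). BCL2L1, which encodes the survival factor BCL-XL, had a peak at 2806 bp with 33 tags, fold 7.76 and FDR 0.53%, and BAK1, a pore-forming death effector gene, had peaks at 1625 bp (23 tags) and 24879 bp (20 tags). The death ligand genes FASLG and TNFSF10 had peaks of 10 and 11 tags. Cell-matrix adhesion genes had 4 of 46 (8.70%), with ITGA3 at 27221 bp (35 tags), LAMA5 at 1582 bp (24 tags), ITGA6 at 1746 bp (11 tags) and SRC at 15326 bp (9 tags). Squamous and basal genes had 1 of 20, KRT17 at 31673 bp with 26 tags. The intervals of the share in these lists all include 4.79%.

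Genes of the cells in which SPIB is normally made were not set apart. B cell and plasmacytoid dendritic cell genes had 2 of 32 members beside a peak (6.25%) and 4.21 peaks per Mb (1.15 to 10.8). IKZF3, a lymphoid zinc finger factor gene, had peaks at 2255 bp (34 tags, fold 5.21) and 3173 bp (25 tags, fold 6.55). IRF4, whose protein pairs with SPIB and the related PU.1 on composite DNA sites, had peaks at 12947 bp (13 tags, fold 8.67) and 16458 bp (22 tags, fold 5.78). ETS genes had 1 of 28, ELK3 at 1104 bp with 14 tags and fold 11.6. No intergenic peak had SPIB or SNAP47 as its nearest protein-coding gene: the closest lay 69370 bp from SPIB (11 tags, fold 10.43) and 3534617 bp from SNAP47.

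Among large gene families, olfactory receptor genes, which work mainly in sensory neurons of the nose, had 7 of 392 members beside a peak (1.79%, 0.721 to 3.64) and 0.914 peaks per Mb (0.367 to 1.88), below all genes on both measures. Zinc finger genes, taken by symbols that begin with ZNF or ZFP, had 24 of 538 (4.46%, 2.88 to 6.57) and 2.53 per Mb (1.64 to 3.74), close to all genes. Cytoplasmic ribosomal protein genes had 7 of 87 (8.05%) and 6.89 per Mb (2.97 to 13.6), with RPS24 (2 peaks of 10 tags, folds 13.65 and 11.47) of highest fold. Histone genes had 0 of 73, but they have 6.502 kb of intergenic sequence each, so that 0 allows up to 7.77 per Mb. Near FGFR1 2 of 10 genes (FGFR1 and TACC1) and near PDGFRA 1 of 8 (GSX2 at 37608 bp, 19 tags) had a peak.

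Small RNA genes were nearest to 51 peaks: 23 small nucleolar RNA, 12 microRNA (miRNA), 11 transfer RNA and 5 small nuclear RNA genes. Mature sequences from RefSeq (GRCh38.p14) were found for 9 of the 12 miRNA genes. Those of the 4 with 20 tags or more in the peak are printed 5′ to 3′, with the seed (bases 2 to 8), the stretch that selects target RNAs, in capitals.
hsa-miR-193a-5p: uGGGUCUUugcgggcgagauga
hsa-miR-193a-3p: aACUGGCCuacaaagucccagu
hsa-miR-146b-5p: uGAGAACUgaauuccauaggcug
hsa-miR-146b-3p: gCCCUGUGgacucaguucuggu
hsa-miR-183-5p: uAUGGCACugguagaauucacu
hsa-miR-183-3p: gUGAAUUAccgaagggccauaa
hsa-miR-5188: aAUCGGACccauuuaaaccggag

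No 2 of these seeds are the same. The peak at MIR193A, at chr17:31558407-31559053, lay 1419 bp upstream of the gene and held 50 tags (37.1 to 65.9) at fold 9.01 and FDR 0. MIR146B, a gene known for restraining inflammatory signalling, had a peak 1433 bp upstream with 38 tags (26.9 to 52.2), fold 4.61 and FDR 5.51%. MIR183, known from sensory cells, had a peak 5517 bp upstream with 23 tags, fold 6.04 and FDR 4.01%. MIR5188 had a peak 1844 bp downstream with 23 tags and fold 7.71. For these loci the miRNA gene was nearer than the protein-coding gene, which for MIR193A was RAB11FIP4 at 20366 bp.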

How the data were processed

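Peak lists came from the authors, who ran MACS 1.4.2 on each ChIP library with the matching input as control, per the file headers. Coordinates are hg38, per the submitters' processing notes, and for the aligner nothing is given in the sources used here. The deposited tags are a count of ChIP tags per peak, not normalized. The authors' fold is a ratio to local background, the authors' FDR is a percent, and the deposited score is minus 10 times log10 of the p-value, with a floor of 50. All were used to describe or rank peaks within a list, and once to set the suspended and attached intergenic peaks side by side.

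Genes came from RefSeq (GRCh38.p14): 59679 genes, 20037 of them protein-coding, as spans without exons. Distance ran from the summit to the nearest gene end. Shares carry Clopper-Pearson and counts Poisson 95% intervals, computed with SciPy 1.17.1, pandas 2.3.3 and numpy 2.4.6 under Python 3.11.15, and matplotlib 3.10.9 drew the plots. Median intervals use order statistics. The distance and overlap steps were tested on simulated data.

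The peaks named are the 10 of highest fold, the 5 with most tags, the 5 farthest from a gene, the 10 of highest fold within 50 kb of a nearest protein-coding gene, the 5 genes and the 1 Mb windows with most peaks, up to 4 genes of each list by fold, and SPIB and SNAP47. DNAJB12, MAP2K3, the promoters, the miRNA genes and list genes beyond the 4 of highest fold were chosen after their values were seen. Some genes chosen this way are not reported here. The peak set and the gene lists were chosen with earlier results of these data known. The splits of chromosome 5 at 50 Mb and of chromosome 17 at 30 Mb were not planned. A planned motif count in the peaks was not run, because no genome sequence was used here.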

Additional observations from a re-analysis of the deposited data

How the results depend on the processing

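Each of 9 settings was changed alone. Of 70 values 46 stayed close to the value reported and 24 moved. These values are counts, shares and medians without a sign, so none of them could reverse. For counts, close was a loose label: 1253 peaks with FDR at most 5% were called close to the 1780 reported. So were 1299 peaks with a limit of 5 kb from gene ends. With protein-coding genes alone as annotation, 1408 nearest protein-coding genes were called close to 960. With peaks of FDR at most 5%, the intergenic share was 19.97% and the median fold 10.92. In the 50% of suspended peaks of highest score there were 681 intergenic peaks (a share of 17.4%), 30.4% of them within 5 kb of a gene end, with a median distance of 10085 bp and a median fold of 11.2, beside 396 protein-coding and 37 list genes. With a limit of 5 kb from gene ends, the share was 15.6%, the median distance 18005 bp, the share nearest to a protein-coding gene 31.9% and the median fold 10.62, beside 609 protein-coding and 50 list genes. With protein-coding genes alone as annotation there were 2702 intergenic peaks (32.4%), 13.8% of them within 5 kb, at a median of 31762 bp. Outside crowded windows the share was 22.5%, 24.7% lay within 5 kb, the median distance was 12876.5 bp, 34.0% were nearest to a protein-coding gene and the median fold was 10.87. Of 207 list counts 159 stayed close, 39 moved down and 9 up. The AP-1 and immediate early list kept 3 of 31 genes among the 50% of highest score, when 1.98% of all genes were counted, and the homeobox list 2 of 63. The share within 5 kb under the 5 kb limit, and the kind of nearest gene with protein-coding genes alone, are fixed by construction and were not computed. No paired analysis was possible because each group had 1 library. At a median of 11 tags per peak, counting error limits every comparison of single peaks.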

Other observations

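Some intergenic peaks lay in the longest stretches without a gene. In gaps of over 1 Mb there were 17 peaks in 11 gaps. Centromeres and repeats were not marked here, so which of these gaps hold them was not examined. The gap between SNX18P25 and DCUN1D4 on chromosome 4, 2244.155 kb long, held a peak of 24 tags at fold 19.36 and a peak of 8 tags at fold 19.87. The gap between TARDBPP5 and LOC105377916 on chromosome 6, 1080.982 kb long, held 5 peaks of 8 to 11 tags with folds of 12.42 to 14.45, and 4 of them had GRIK2, a kainate receptor gene, as nearest protein-coding gene. The 260.709 kb gap between LINC02103 and LOC105374701 on chromosome 5 held 6 peaks of 9 to 44 tags with folds of 5.42 to 9.56.

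Proline transfer RNA gene TRP-TGG2-1 on chromosome 11 had 2 intergenic peaks nearest to it, at 2299 bp (18 tags, fold 8.78) and 14804 bp (23 tags, fold 8.67), and both lay within 50 kb of WNT11. A peak of 42 tags at fold 10.77 lay 35488 bp from the small nucleolar RNA gene LOC124900897 on chromosome 4. These were chosen after their values were seen.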
